A study of Mus musculus with 16 samples.

Results

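The genes described here are 10 markers of reactive astrocytes, Gfap, Vim, Serpina3n, Osmr, S1pr3, Cp, Aspg, Fbln5, Cd109 and Ggta1, taken by gene symbol from the 17074 genes of an RNA-Seq table of mouse cerebellum. All 10 were found, and all 10 passed the filter used for testing, a mean of at least 10 normalized counts over the 16 libraries. The study asked how loss of ACSL6, an acyl-CoA synthetase that channels the omega-3 fatty acid DHA into membrane phospholipids, acts on the brain with age. Female C57BL/6 mice were compared in 4 groups of 4 libraries: aged (18 months) Acsl6-/- mice, aged control mice, young (2 months) Acsl6-/- mice and young control mice, and the aged animals had aged naturally. The Acsl6-/- mice came from floxed Acsl6 mice bred to a CMV-Cre line and lacked the gene in the germline, so every cell type, astrocytes included, carried the deletion. RNA was from whole dissected cerebellum, so fewer cells of a type and less RNA per cell cannot be told apart.

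Astrocytes respond to injury, inflammation and aging by reactive gliosis, in which they enlarge, build up intermediate filaments and switch on genes for secreted inhibitors, cytokine receptors and metal handling. In mouse models these genes have been grouped as pan-reactive, as A1 genes (induced by inflammation, with microglial IL-1α, TNF and C1q as inducers) or as A2 genes (induced by ischemia). Of the members, 7 are pan-reactive (Gfap, Vim, Serpina3n, Osmr, S1pr3, Cp and Aspg), Fbln5 and Ggta1 belong to the A1 class, and Cd109 to the A2 class. In the cerebellum, Gfap marks Bergmann glia, whose fibers span the molecular layer, and the astrocytes of the granular layer and white matter. Cytokines of the IL-6 family act on astrocytes through receptors that contain gp130 and activate STAT3, a transcription factor needed for much of the reactive program.

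With age, 7 members rose in Acsl6-/- mice, where 11.6% of all genes were called higher, and 8 rose in control mice, where 15.3% were, led by Gfap and Serpina3n at 2- to 3-fold. The count in control mice was 4 without the 5 libraries rich in choroid plexus RNA described below. That fit kept 2 aged and 2 young controls and called 1350 of 17042 genes higher, against 2610 in the main fit. Between genotypes, Gfap was 1.41-fold higher in young Acsl6-/- mice than in young controls, and no member passed the test at 18 months.

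Since most members moved together with age, their promoters were searched for the sites of 2 factors of gliosis, STAT (TTCNNNGAA) and AP-1 (TGANTCA), on both strands; the motifs share no bases in the windows shown. RefSeq promoter windows of 300 bases (250 before and 50 after the transcript start, build GRCm38.p6) were found for 9 of the 10 members, 11 windows in all. The STAT motif was in 1 of the 11 windows (9.09%), that of Gfap, against 8.30% of all 32851 windows, and the AP-1 motif was in 2 (18.2%), those of Osmr and Cp, against 7.81% of all windows. The 3 promoters printed here are those of the 2 members with the largest changes with age and that of Cp, which holds 1 of the 2 AP-1 matches. Cp had 2 windows, and the other one, not printed, held neither motif. Each runs 5′ to 3′ on the gene's strand over 210 bases, from 200 before to 10 after the start, and capitals mark a motif. The Gfap stretch is chr11:102897191-102897400 on the minus strand, the Serpina3n stretch chr12:104406508-104406717 on the plus strand, and the Cp stretch chr3:19956854-19957063 on the plus strand.
Gfap: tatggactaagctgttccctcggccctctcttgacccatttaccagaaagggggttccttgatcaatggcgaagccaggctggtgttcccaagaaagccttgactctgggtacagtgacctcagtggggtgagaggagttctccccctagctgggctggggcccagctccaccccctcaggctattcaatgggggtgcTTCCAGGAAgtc
Serpina3n: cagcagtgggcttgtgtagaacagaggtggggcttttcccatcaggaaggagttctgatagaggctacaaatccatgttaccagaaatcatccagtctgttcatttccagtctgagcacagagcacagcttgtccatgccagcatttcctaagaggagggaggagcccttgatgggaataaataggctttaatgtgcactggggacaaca
Cp: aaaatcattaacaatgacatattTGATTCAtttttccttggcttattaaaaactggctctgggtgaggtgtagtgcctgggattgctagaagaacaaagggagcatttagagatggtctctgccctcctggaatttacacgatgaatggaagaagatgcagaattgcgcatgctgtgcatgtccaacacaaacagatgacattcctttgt
In Gfap the STAT match lay across the start site, with its first base 2 bases before it, and the AP-1 match of Cp began 177 bases before the start. The Serpina3n window held neither motif.

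The libraries held 16953548 to 27569428 reads in genes. Acsl6, the deleted gene, had 2101 to 2276 normalized counts in aged Acsl6-/- libraries against 5839 to 6086 in aged controls. It had 2248 to 2336 in young Acsl6-/- libraries against 6296 to 6973 in young controls. By these counts every library matched its genotype label, whereas the age labels were not checked by them. The gene-level count does not show from which exons the remaining reads came. Ttr, a choroid plexus transcript, was at 5792 to 26551 in 5 libraries (aged Acsl6-/- 1, aged control 3 and 4, young control 1 and 4) and at 87.9 to 435 in the other 11, so the amount of choroid plexus in the dissections was unequal. Aged control 3 also carried 686717 counts of Gm42418, against 41707 or fewer elsewhere. Results that change without these libraries are marked below. The fit without the 5 Ttr-rich libraries kept only aged control 1 and 2 and young control 2 and 3 among the controls. Whether a call lost there reflects fewer libraries or choroid plexus content was not tested. The GEO labels do not say that each library was a separate animal, so p values measure the spread between libraries.

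The members spanned a wide range of abundance. Per kilobase of annotated exon, Gfap averaged 840 and Vim 574 normalized counts over the 16 libraries, higher than 94.3% and 90.4% of all genes. The next were Cp at 62.4, Fbln5 at 45.5 and Serpina3n at 42.9 counts per kilobase, all below the median gene. S1pr3 had 21.3, Aspg 19.99, Ggta1 9.96, Osmr 9.57 and Cd109 6.37 per kilobase. The lowest read number behind any value was 17, for Cd109 in young control 1, so single libraries are less precise for Cd109, Ggta1, Aspg and Serpina3n than for Gfap and Vim, which had at least 1206 reads in each library.

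**Figure D1:**
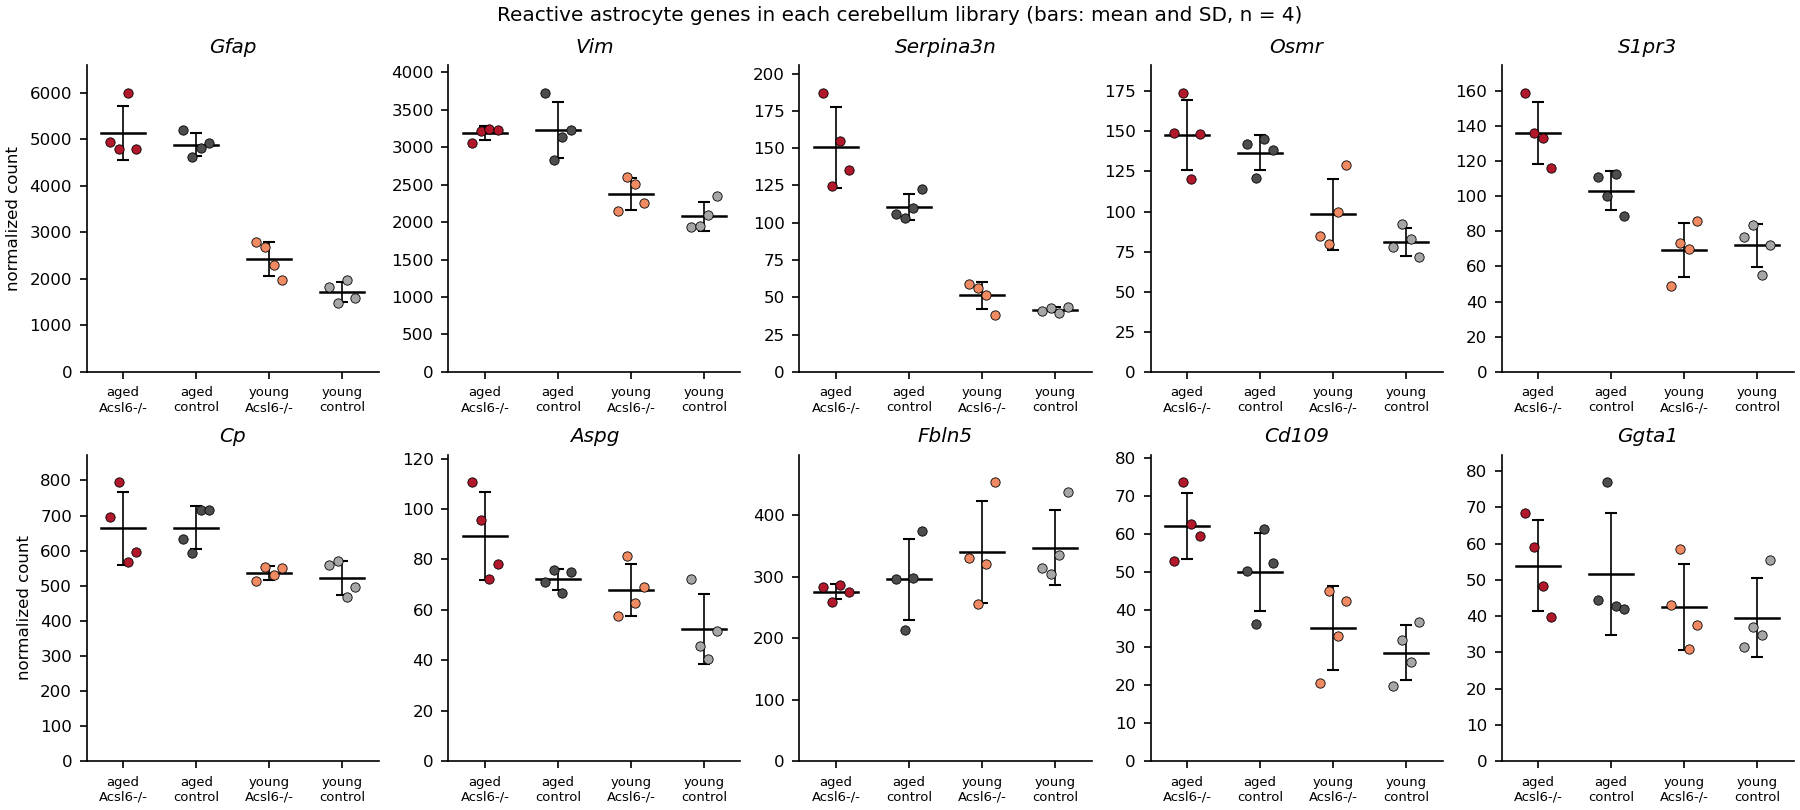
Normalized counts (y axes, from 0, with their own scale) of the 10 genes in each of the 16 cerebellum libraries; points are libraries, bars the mean and SD of 4. Gfap, Vim and Serpina3n in the aged groups lay above all young libraries, whereas Fbln5 had its highest values in the young groups.

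Gfap, the main intermediate filament protein of astrocytes, showed one of the clearest differences with age. Normalized counts of Gfap were 4939.9, 4799, 5988 and 4788 in aged Acsl6-/- mice, against 2782, 2675, 2292 and 1981 in young Acsl6-/- mice. They were 5189.9, 4621, 4809 and 4915 in aged controls, against 1831, 1483, 1971 and 1597 in young controls. No aged library overlapped a young one in either genotype. The rise was 2.12-fold in Acsl6-/- mice (log2 fold change 1.08, SE 0.10, adjusted p = 8.3e-07) and 2.85-fold in control mice (1.51, SE 0.10, adjusted p = 1.5e-08), which placed Gfap at rank 281 and rank 147 of the 17042 genes by log2 fold change. Log2 fold changes are from limma fits of log2(normalized count + 1), and adjusted p values are over all 17042 genes, with 0.05 as the threshold for a call.

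Vim, the filament protein that copolymerizes with GFAP in reactive astrocytes and is also made by Bergmann glia, endothelial and mesenchymal cells, rose less. It had 3053, 3223, 3244 and 3238 counts in aged Acsl6-/- mice against 2153, 2608, 2505 and 2254 in young ones. In control mice it had 3724, 2831, 3139.8 and 3232 counts when aged, against 1935, 1949.8, 2089.7 and 2354 when young. The groups did not overlap, and the log2 fold change was 0.43 (SE 0.08, adjusted p = 0.00055) in Acsl6-/- mice and 0.63 (SE 0.08, adjusted p = 9.5e-06) in controls.

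Serpina3n, a secreted serine protease inhibitor related to human α1-antichymotrypsin, rose by the largest factor of the 10 members in Acsl6-/- mice. Its counts were 187, 125, 155 and 136 in aged Acsl6-/- mice, against 58.6, 56.5, 51.5 and 38.5 in young ones, and 106, 103, 110.2 and 123 in aged controls, against 40.7, 43.0, 39.5 and 43.2 in young controls. All aged libraries held more than the highest young one. The rise was 2.90-fold in Acsl6-/- mice (log2 fold change 1.54, SE 0.14, adjusted p = 9.1e-07) and 2.61-fold in controls (1.39, SE 0.14, adjusted p = 2.1e-06). Its close paralogs of the Serpina3 cluster were not analysed here.

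The 2 receptors among the members were called higher in both genotypes, though in controls not in the fit without the Ttr-rich libraries. Osmr, the subunit that joins gp130 to form the oncostatin M receptor, had 149, 174, 121 and 148 counts in aged against 85.0, 79.5, 99.8 and 129 in young Acsl6-/- mice, where young library 4 overlapped the aged range. In controls it had 142, 121, 145 and 138 counts in aged against 78.0, 92.2, 82.9 and 71.4 in young mice, with no overlap. The log2 fold change was 0.60 (SE 0.14, adjusted p = 0.0054) in Acsl6-/- and 0.75 (SE 0.14, adjusted p = 0.00071) in control mice. S1pr3, a G protein-coupled receptor for sphingosine 1-phosphate, had 159, 136, 133 and 116 counts in aged against 48.9, 73.2, 69.98 and 85.6 in young Acsl6-/- mice. In controls it had 111, 99.96, 112 and 88.7 counts in aged against 76.8, 83.6, 55.0 and 72.3 in young mice. The groups were separate in both genotypes, with log2 fold changes of 0.98 (SE 0.16, adjusted p = 0.00031) in Acsl6-/- mice and 0.52 (SE 0.16, adjusted p = 0.021) in controls. The control result for S1pr3 lost its call without young control 3 (adjusted p = 0.079), aged control 1 (0.056) or aged control 3 (0.058), and in the tests on 14 libraries (0.054 to 0.067). Without the Ttr-rich libraries, with 2 aged and 2 young controls left, the changes in controls were 0.58 for Osmr (adjusted p = 0.093) and 0.63 for S1pr3 (adjusted p = 0.10).

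Cp encodes ceruloplasmin, a copper ferroxidase held at the astrocyte surface that helps iron leave cells. It had 696, 795, 567 and 596 counts in aged Acsl6-/- mice, against 512, 552, 531 and 551 in young ones, and 634, 594, 716 and 715 in aged controls, against 559, 569, 469 and 495 in young controls. The groups were separate but close, and the log2 fold change was 0.29 (SE 0.09, adjusted p = 0.028) in Acsl6-/- mice and 0.35 (SE 0.09, adjusted p = 0.0083) in controls. The 2 highest aged controls, 3 and 4, were also Ttr-rich. In the tests on 14 libraries, which left both of them out, the call in controls was lost. Without the 5 Ttr-rich libraries the changes were 0.27 (adjusted p = 0.077) in Acsl6-/- mice and 0.25 (adjusted p = 0.23) in controls, and in Acsl6-/- mice the call was also lost without young library 1 or 3 or aged library 1 or 2 (adjusted p up to 0.11). Cp shares 108 exonic bases with Hps3 on the opposite strand, and S1pr3 shares 45 with Gm32834, and since the strand setting of the counting is not given in the sources used here, reads in those stretches cannot be assigned to a strand.

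Aspg, an asparaginase with lysophospholipase activity in the rat enzyme, had 111, 95.8, 72.1 and 78.3 counts in aged Acsl6-/- mice against 57.7, 81.6, 62.8 and 69.3 in young ones, and 71.1, 75.8, 66.6 and 75.0 in aged controls against 72.2, 45.5, 40.5 and 51.7 in young controls. The ranges overlapped in both genotypes. It was called in controls (log2 fold change 0.48, SE 0.17, adjusted p = 0.040) and not in Acsl6-/- mice (0.38, SE 0.17, adjusted p = 0.12). The call in controls was lost without young control 2, 3 or 4 or any 1 of the 4 aged controls (adjusted p 0.052 to 0.13). It was also lost in the tests on 14 libraries, and 16 of the 30 alternatives run kept it.

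Cd109, the A2 member, is a membrane-anchored protein that binds TGF-β and its receptors, and it had 52.8, 73.5, 62.5 and 59.5 counts in aged against 20.5, 45.0, 32.9 and 42.3 in young Acsl6-/- mice. In controls it had 50.2, 36.2, 61.2 and 52.2 counts in aged against 19.8, 32.0, 26.0 and 36.6 in young mice, where aged control 2 lay within the young range. It rose in Acsl6-/- mice (log2 fold change 0.85, SE 0.24, adjusted p = 0.014) and in controls (0.79, SE 0.24, adjusted p = 0.016). These calls were lost without young Acsl6-/- 1 (adjusted p = 0.055), and without young control 1 (0.064) or aged control 3 (0.055). In controls the call was also lost without the Ttr-rich libraries (log2 fold change 0.55, adjusted p = 0.28) and in the tests on 14 libraries (adjusted p 0.17 to 0.20).

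The 2 A1 members passed no test with age. Ggta1, the galactosyltransferase that makes the α-gal epitope, averaged 53.9 ± 12.6 counts in aged Acsl6-/- mice against 42.5 ± 11.8 when young. In control mice it averaged 51.6 ± 16.9 counts when aged against 39.6 ± 10.8 when young (SD, n = 4 each). The groups overlapped, with log2 fold changes of 0.35 and 0.36 (SE 0.24 each, adjusted p = 0.33 and 0.27). Fbln5, an elastic fiber protein of the extracellular matrix, was the one member with negative changes. It averaged 276 ± 12.5 counts in aged Acsl6-/- mice against 339.9 ± 82.5 when young, and in control mice 295 ± 65.8 counts when aged against 347 ± 61.2 when young (SD, n = 4 each), with overlap in both genotypes. The log2 fold changes of Fbln5 were -0.27 (95% interval -0.61 to 0.07, adjusted p = 0.24) in Acsl6-/- mice and -0.24 (-0.58 to 0.09, adjusted p = 0.26) in controls.

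Over the 10 members, 7 rose and 0 fell with age in Acsl6-/- mice, where 11.6% of all 17042 genes were called higher and 11.6% lower, and 8 rose and 0 fell in controls, where 15.3% of all genes were called higher and 16% lower. The median log2 fold change of the members was 0.51 in Acsl6-/- mice and 0.58 in controls, against -0.00015 and 0.0060 over all genes. For 6 members in each genotype every aged library exceeded every young one (Gfap, Vim, Serpina3n, S1pr3 and Cp in both, Cd109 in Acsl6-/- mice and Osmr in controls), a pattern met by 11.5% of all genes in Acsl6-/- mice and 14.8% in controls. Such a full separation always gives p = 0.0286 in the two-sided exact permutation test, the smallest that 4 against 4 libraries allow. That p therefore adds nothing to the pattern itself. The 2 age comparisons share no library, whereas each genotype comparison shares 4 libraries with each of them. Of the pan-reactive members, 6 of 7 rose in Acsl6-/- mice and 7 of 7 in controls. The count in controls fell to 4 (Gfap, Vim, Serpina3n and Aspg) without the 5 Ttr-rich libraries. With 2 aged and 2 young controls left, 1350 of the 17042 genes were called higher there. The count in controls also fell to 4, but with Osmr in place of Aspg, without aged control 3 and 4, where limma called 1547 genes higher. Without aged control 3 alone it fell to 5, with 2193 genes called higher. Gfap, Vim and Serpina3n kept their calls with age in both genotypes under every alternative run.

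**Figure D2:**
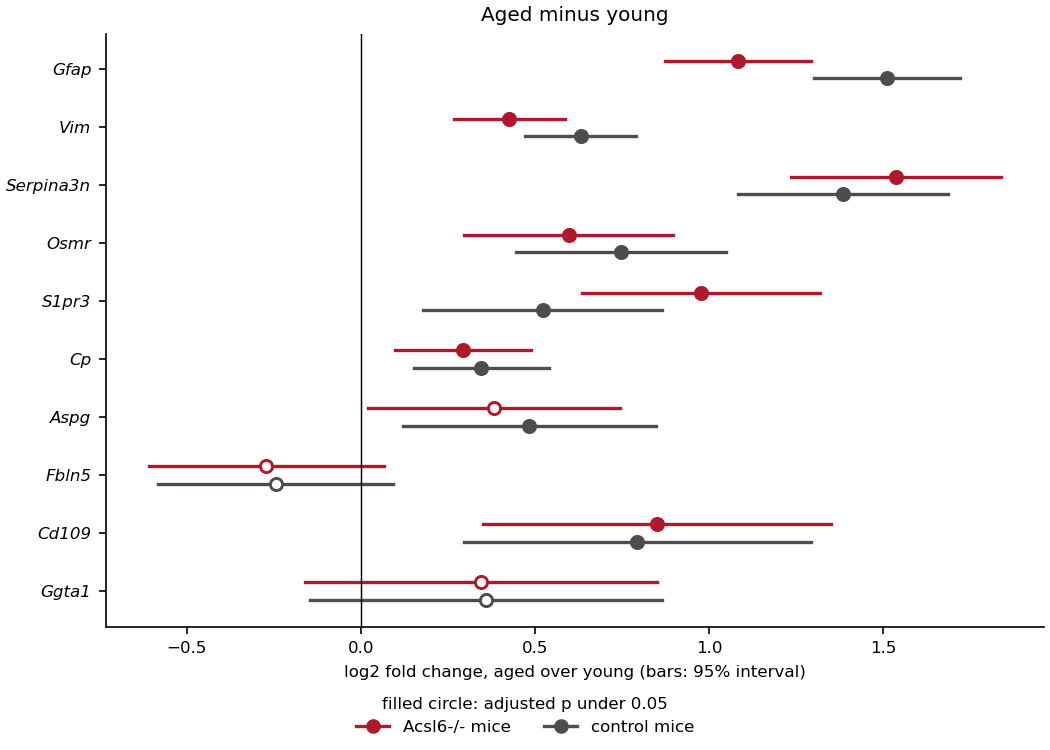
Log2 fold change of aged over young mice (x axis) for each gene, with 95% intervals, in Acsl6-/- mice (red, upper line of each pair) and control mice (gray, lower); filled circles passed an adjusted p of 0.05. All members but Fbln5 lay right of 0 in both genotypes, and Gfap (1.08 in Acsl6-/- mice and 1.51 in controls) and Serpina3n (1.54 and 1.39) lay farthest.

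At 2 months, Gfap was the 1 member called between genotypes, and 0.135% of all genes were called higher in young Acsl6-/- mice. From the values above, the lowest young Acsl6-/- library (1981) lay just above the highest young control (1971), with no overlap, and the means were 2432 ± 367 in young Acsl6-/- mice and 1720.4 ± 221 in young controls (SD, n = 4 each). The log2 fold change was 0.50 (SE 0.10, 95% interval 0.29 to 0.70, adjusted p = 0.048), a 1.41-fold difference at rank 32 of the 17042 genes by p. Gfap was also the 1 member for which all 4 Acsl6-/- libraries exceeded all 4 controls, a pattern met by 3.29% of all genes. The call sat at the threshold. It was lost in 12 of the 16 fits that left out 1 library, with adjusted p up to 0.15, and kept only without young Acsl6-/- 4, young control 3, aged Acsl6-/- 3 or aged control 2. It was also lost without the Ttr-rich libraries (adjusted p = 0.23), while DESeq2 kept it on 14 libraries (adjusted p = 0.017) and on 16 (adjusted p = 0.00043). It was kept in 12 of the 30 alternatives run, and the log2 fold change was between 0.43 and 0.59 in all 30.

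The other 9 members had no call at 2 months. The log2 fold change was 0.19 for Vim (SE 0.08, adjusted p = 0.31), 0.39 for Aspg (SE 0.17, adjusted p = 0.37), 0.28 for Serpina3n (SE 0.14, adjusted p = 0.46), 0.25 for Osmr (SE 0.14, adjusted p = 0.50) and 0.27 for Cd109 (SE 0.24, adjusted p = 0.72). For the other 4, S1pr3, Cp, Fbln5 and Ggta1, it ran from -0.06 to 0.09. In all, 8 of 10 members were positive, with a median of 0.22, against 49.4% of all genes and a median of -0.0016. The 3 with an unadjusted limma p under 0.05 were Gfap, Vim and Aspg, 3 of 10 against 12.1% of all genes.

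At 18 months no member was called by limma, DESeq2 or edgeR, and 2 had an unadjusted limma p under 0.05, where 0.0821% of all genes were called higher and 9.15% had an unadjusted p under 0.05. The 2 were Serpina3n (log2 fold change 0.43, SE 0.14, adjusted p = 0.33) and S1pr3 (0.39, SE 0.16, adjusted p = 0.48). For Serpina3n, aged Acsl6-/- mice had 125 to 187 counts and aged controls 103 to 123, and for S1pr3, 116 to 159 in aged Acsl6-/- mice and 88.7 to 112 in aged controls. In both genes all 4 aged Acsl6-/- libraries lay above all 4 aged controls, a pattern met by 2.89% of all genes. The filament genes had small differences without a call. Gfap averaged 5129 ± 577 counts in aged Acsl6-/- mice and 4884 ± 237 in aged controls (log2 fold change 0.07, 95% interval -0.14 to 0.27), and Vim 3189.5 ± 91.3 in aged Acsl6-/- mice and 3232 ± 371 in aged controls (-0.012, 95% interval -0.17 to 0.15; SD, n = 4 each). Aspg (0.28, SE 0.17, adjusted p = 0.66) and Cd109 (0.32, SE 0.24, adjusted p = 0.75) were positive, and Osmr, Cp, Fbln5 and Ggta1 lay between -0.07 and 0.10.

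The test of whether the genotype difference changed with age (the difference at 18 months minus that at 2 months) called 0 members by limma, DESeq2 or edgeR. It is also the age effect in Acsl6-/- mice minus that in controls. Gfap had the smallest p (-0.43, SE 0.14, adjusted p = 0.31) and was the 1 member with an unadjusted limma p under 0.05, against 10.02% of all genes. Vim (-0.21, SE 0.11, adjusted p = 0.54) shared its sign, and S1pr3 (0.45, SE 0.23, adjusted p = 0.53) had the opposite one. The other 7 members were between -0.15 and 0.15. No member thus had a detectable difference in age response between genotypes after adjustment.

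**Figure D3:**
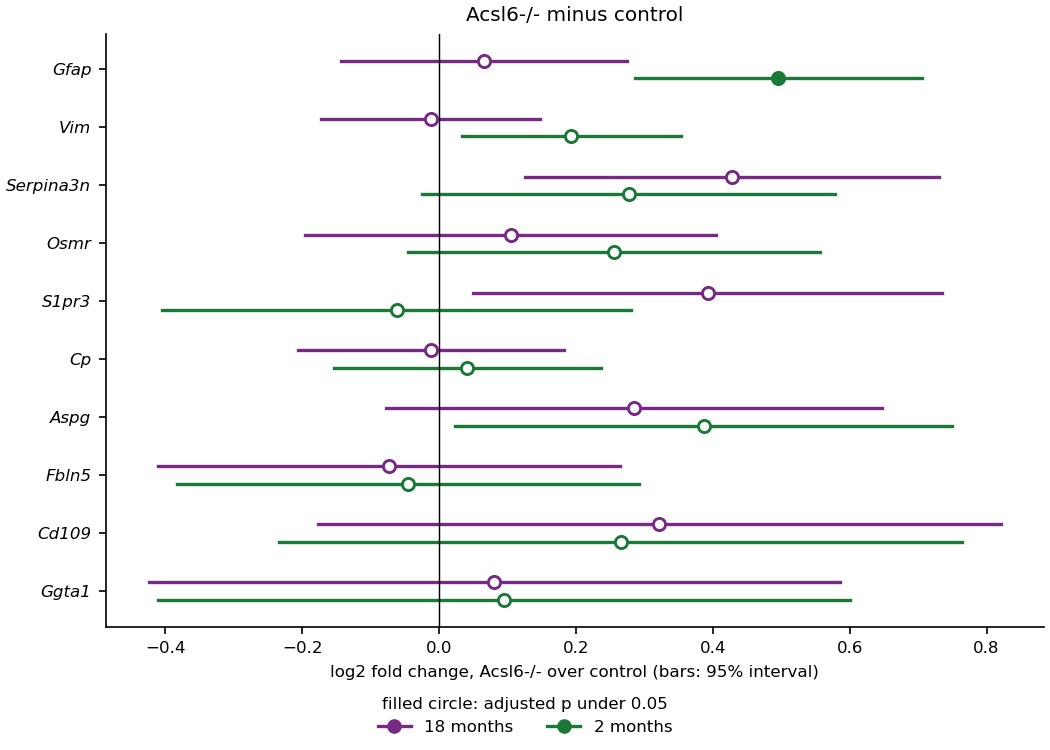
Log2 fold change of Acsl6-/- over control mice (x axis) for each gene, with 95% intervals, at 18 months (purple, upper line of each pair) and at 2 months (green, lower); filled circles passed an adjusted p of 0.05. Gfap at 2 months (0.50) is the 1 filled circle, and the intervals of Serpina3n (0.43) and S1pr3 (0.39) at 18 months lie right of 0.

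Other genes of the reactive program moved with age as well, where 11.6% of all genes were called higher in Acsl6-/- mice and 15.3% in controls. Of the 6 other pan-reactive genes, 3 rose in each genotype: Cxcl10, a chemokine for T cells (log2 fold change 3.41, SE 0.49 in Acsl6-/- mice and 2.32, SE 0.49 in controls), Hspb1, a small heat shock protein (0.65 and 0.97, SE 0.17 each), and Cd44, the hyaluronan receptor (0.40 and 0.68, SE 0.10 each). Cxcl10 averaged 31.6 ± 13.9 counts in aged and 2.24 ± 1.497 in young Acsl6-/- mice (SD, n = 4 each). Lcn2, a secreted siderophore-binding protein often used as a marker of strong reactivity, did not pass the test (0.78, SE 0.42, adjusted p = 0.19 in Acsl6-/- mice and 0.23, SE 0.42, adjusted p = 0.71 in controls). Timp1, an inhibitor of metalloproteinases, did not pass either (0.33, adjusted p = 0.31 in Acsl6-/- mice and 0.04, adjusted p = 0.92 in controls).

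Of 9 other A1 genes, 6 rose in Acsl6-/- mice and 3 in controls, where 11.6% and 15.3% of all genes were called higher. The interaction passed in limma for 0 of these 9 genes. Gbp2, an interferon-induced GTPase (1.98 in Acsl6-/- mice and 1.82 in controls, SE 0.25 each), Psmb8, a subunit of the immunoproteasome (1.55 and 1.64, SE 0.23 each), and Serping1, the C1 inhibitor (0.46 and 0.42, SE 0.10 each), rose in both. H2-D1, a class I histocompatibility gene, rose in Acsl6-/- mice (0.40, SE 0.07, adjusted p = 0.00027) and was at 0.11 (adjusted p = 0.22) in controls, but its interaction did not pass (0.29, adjusted p = 0.29). Of 9 other A2 genes, Emp1, Ptgs2 and Cd14 rose in each genotype and Clcf1, a cytokine of the IL-6 family, fell (-1.24 in Acsl6-/- mice and -1.003 in controls, SE 0.20 each). Gbp2, Psmb8, H2-D1 and Cd14 are also made by microglia, whose markers rose over the same contrast. The part of microglial RNA in the levels of these genes was not tested.

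Around the receptor gene Osmr, the gp130 pathway list held 15 genes. Il6st, which encodes gp130, rose (0.29 in Acsl6-/- mice and 0.27 in controls, SE 0.04 each), as did Il6ra, the IL-6 receptor (0.47 and 0.62, SE 0.13 each), and the kinase gene Jak2 (0.27 and 0.40, SE 0.05 each), whereas the kinase gene Jak1 rose in Acsl6-/- mice (0.15, SE 0.04, adjusted p = 0.0051) and was at 0.06 in controls (adjusted p = 0.24). In all 4 rose and 1 fell in Acsl6-/- mice, where 11.6% of all genes were called in each direction. In controls 3 of 15 rose and 2 fell, near the 15.3% higher and 16% lower over all genes. The transcript of Stat3 itself was at -0.0024 (adjusted p = 0.98) in Acsl6-/- mice and 0.12 (adjusted p = 0.080) in controls, and that of Socs3, its feedback inhibitor, at -0.00045 (adjusted p = 0.999) and 0.26 (adjusted p = 0.36). At 2 months Stat3 was 0.18 higher on the log2 scale in Acsl6-/- mice without passing the test (SE 0.05, adjusted p = 0.14). The ligand genes Osm, Lif and Il6 were not analysed here.

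Among 10 other intermediate filament genes, Nes, which encodes nestin, rose in both genotypes (0.81 in Acsl6-/- mice and 1.01 in controls, SE 0.13 each), Synm, a partner of vimentin and desmin, rose in controls (0.51, SE 0.07, adjusted p = 6.4e-05) and was at 0.17 in Acsl6-/- mice (adjusted p = 0.11), and Des, the muscle filament of mural cells, fell (-0.44 in each, SE 0.13). The 3 neurofilament genes and the 3 lamin genes passed no test with age. Around S1pr3, no gene of the sphingosine 1-phosphate list rose in Acsl6-/- mice and 2 of 10 fell, near the 11.6% of all genes called lower. These were S1pr5 (-0.34, SE 0.09), the oligodendrocyte receptor, and the transporter gene Spns2 (-0.15, SE 0.05). In controls S1pr1 (0.36, SE 0.05) and Plpp3 (0.21, SE 0.05) rose, and S1pr2 (-0.83, SE 0.15), Spns2 and S1pr5 fell. The interaction did not pass in limma for S1pr1 (-0.30, SE 0.06, adjusted p = 0.13), Plpp3 (-0.26, SE 0.07, adjusted p = 0.18) or S1pr2 (0.59, SE 0.21, adjusted p = 0.36), whereas DESeq2 on 16 libraries called it for S1pr1 (adjusted p = 0.0055) and Plpp3 (adjusted p = 0.047). Around Cp, 0 of 10 iron genes rose and 3 fell in Acsl6-/- mice, where 11.6% of all genes were called in each direction. In controls 1 rose and 3 fell, against 15.3% higher and 16% lower over all genes. The transferrin receptor gene Tfrc fell in both genotypes (log2 fold change -0.94 in Acsl6-/- mice and -1.01 in controls, SE 0.06 each). Slc40a1, which encodes ferroportin, the iron exporter that ceruloplasmin serves, was at -0.31 in each (adjusted p = 0.16 and 0.14). Around Fbln5, Efemp1 (fibulin-3; 0.94 in Acsl6-/- mice and 1.24 in controls, SE 0.13 each) and Ltbp4 (0.36 and 0.56, SE 0.09 each) rose in both genotypes, and Eln, elastin itself, was at -0.09 and -0.07 (adjusted p = 0.70 and 0.77).

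**Figure D4:**
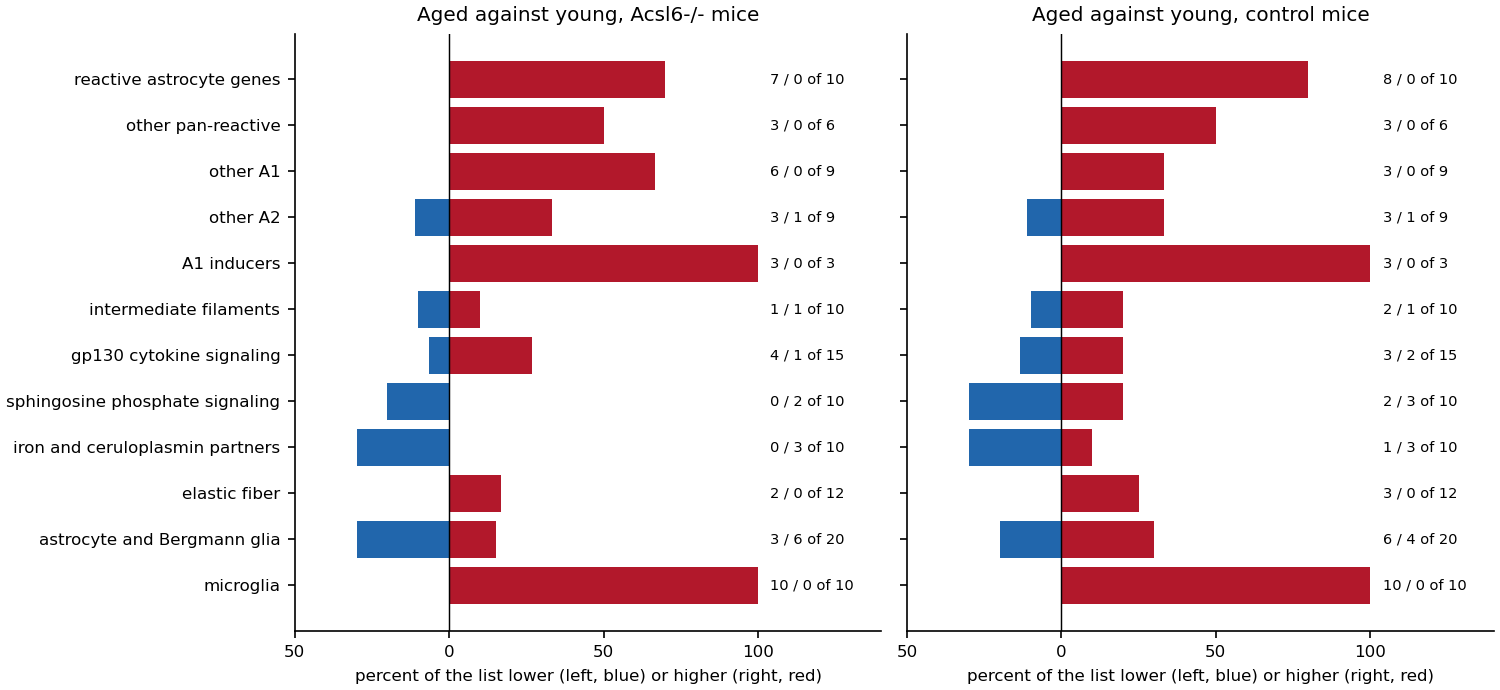
Share of each gene list (x axis, percent of the genes tested) called higher (red, right) or lower (blue, left) in aged than in young mice, in Acsl6-/- mice (left panel) and control mice (right panel); the text at the right gives the numbers higher and lower of those tested. The reactive astrocyte genes had 7 of 10 higher in Acsl6-/- mice and 8 of 10 in controls, below the 10 of 10 of the microglial list in both.

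Between genotypes, limma called 0 of the 81 genes of these 9 lists at either age. At 2 months 9 of the 81 had an unadjusted p under 0.05, near the 12.1% of all genes, and DESeq2 called 1 (S1pr1; over all genes it called 131 higher and 96 lower of 14058) and edgeR 0. At 18 months 14 of the 81 had an unadjusted p under 0.05, against 9.15% of all genes, and DESeq2 called 4 (C1qa, C1qb, C1qc and H2-D1, all higher in Acsl6-/- mice) and edgeR 2 (C1qa and C1qc). Over all genes at 18 months DESeq2 called 71 higher and 93 lower of 16039. For the interaction limma called 0 of the 81, with 7 at an unadjusted p under 0.05, and DESeq2 called the 2 named above and edgeR 0. C1qa, a C1q chain made by microglia and an inducer of A1 genes in mouse astrocytes, averaged 762.1 ± 142 counts in aged Acsl6-/- mice and 524 ± 23.7 in aged controls (SD, n = 4 each; log2 fold change 0.52, SE 0.11, adjusted p = 0.059). With age, all 3 C1q genes rose, C1qa by 1.74 (SE 0.11) in Acsl6-/- mice and 1.45 (SE 0.11) in controls on the log2 scale.

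Cell type markers moved beside the members. The shares of all genes called with age were 11.6% higher and 11.6% lower in Acsl6-/- mice. In controls they were 15.3% higher and 16% lower. The summed counts of 20 astrocyte and Bergmann glia markers were 168727 to 178220 in aged Acsl6-/- mice against 181168 to 188197 when young. In control mice they were 171049 to 177482 when aged against 175318 to 185018 when young, so the summed level was not higher in aged mice. Within that list 3 genes rose and 6 fell in Acsl6-/- mice, and 6 rose and 4 fell in controls. Aqp4, the water channel of astrocyte endfeet, rose in both (0.67 in Acsl6-/- mice and 0.95 in controls, SE 0.06 each), as did Hopx (0.37 and 0.52, SE 0.07 each), while Slc1a3, the glutamate transporter gene of Bergmann glia, fell (-0.16 and -0.14, SE 0.04 each), as did Dao (-0.28 and -0.44, SE 0.05 each). All 10 microglial markers rose in both genotypes, and their sum was 4165 to 5394 in aged against 2039 to 2452 in young Acsl6-/- mice, and 3439 to 4049.5 in aged against 1644 to 2098 in young controls. Between genotypes 0 of the 10 were called by limma at 18 months, with 6 at an unadjusted p under 0.05, and DESeq2 and edgeR each called 1 (Ctss). The part of microglial RNA in the members' levels was not tested. Granule cell markers fell with age for 7 of 8 genes in each genotype (median log2 fold change -0.29 in Acsl6-/- mice and -0.31 in controls). Oligodendrocyte markers fell for 7 of 8 in Acsl6-/- mice (median -0.51), and in controls 2 fell and 1 rose (median -0.20). At 2 months, beside the Gfap call, 8 of 8 oligodendrocyte markers (median 0.25), 9 of 10 microglial markers (median 0.25) and 17 of 20 astrocyte and Bergmann glia markers (median 0.091) were higher in Acsl6-/- mice by sign, against 49.4% of all genes. Of the astrocyte and microglial lists limma called 0 genes there, with 6 and 4 at an unadjusted p under 0.05, DESeq2 called Aqp4 and edgeR 0. Their part in the Gfap difference was not tested. Mural and fibroblast markers rose for 1 of 10 genes in Acsl6-/- mice and 4 of 10 in controls, and choroid plexus markers for 0 of 10 in each, with 10 of 10 positive and sums of 3060 to 49078 in aged controls.

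**Figure D5:**
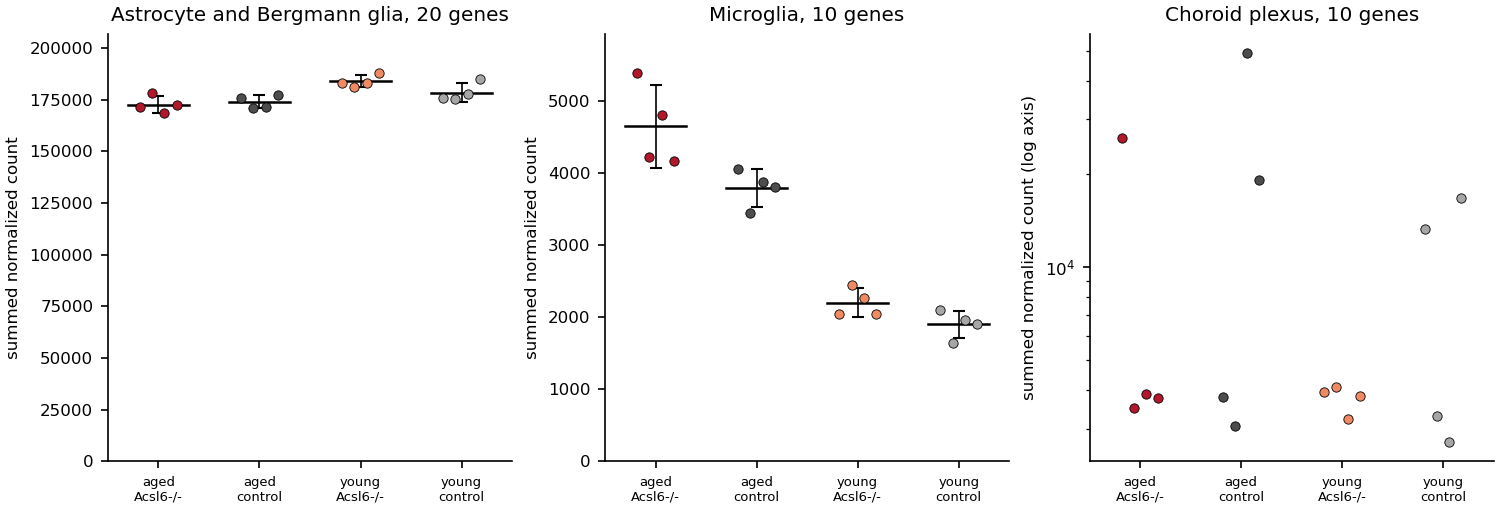
Summed normalized counts (y axes) of the marker lists for astrocytes and Bergmann glia (20 genes), microglia (10 genes) and choroid plexus (10 genes, log axis) in each library; bars are the mean and SD of 4, with points alone for choroid plexus. The astrocyte sum stayed within 168727 to 188197 in all libraries, the microglial sum was higher in all aged than in all young libraries, and the choroid plexus sum stood out in the 5 Ttr-rich libraries.

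Covariation of the members within groups was mixed. Across the 16 libraries, with each group's mean removed, Pearson's r between members ranged from -0.68 to 0.59 over the 45 pairs, with a median of 0.04, and 23 pairs were positive. The genes whose deviations were most like those of Gfap, of 13414 with a mean of at least 50, were Tspan17 (r = 0.88), Lnx1 (0.85), Cmtm7 (0.85), Cox7a1 (0.84) and AA986860 (0.84). For Serpina3n they were Arl10 (0.87), Ttc41 (0.86), Spg20 (0.85), Tusc1 (0.85) and Dgat2 (0.84). These values are a description over 16 libraries, which differed in depth and in choroid plexus content. They are the highest of 13414 correlations for each gene, and whether they exceed those of unrelated genes was not tested. No other member was among either set of 5.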

How the data were processed

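Poly(A) RNA-Seq libraries of cerebellum were grouped by the age and genotype in the GEO labels (4 groups of 4). Per the methods and processing notes, the authors used Trimmomatic (0.36) for trimming, STAR (2.5.2b) for alignment (build GRCm38) and featureCounts for counting, and then divided the counts by size factors. These normalized counts are the deposited signal values analysed here. Whole reads were recovered from the value steps (100% of values whole within 0.001). Here log2(normalized count + 1) was fitted with limma (3.58.1, R 4.3.3) in 1 model of the 4 groups, with a trended variance prior, after a filter at a mean of 10 or more (17042 of 17074 genes kept), and p values were adjusted by Benjamini-Hochberg over these genes for each of 5 comparisons. Single members were also tested with two-sided exact permutation tests. The fits were tested on simulated data.

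The members and gene lists were chosen with earlier results of these data known. The plan was to name all members, up to 4 called genes per direction of each list by smallest p, Stat3, Lcn2, Cd44, Timp1, Socs3, Acsl6, Ttr and the 5 genes most like Gfap and Serpina3n. Not every called list gene that the plan covers is printed. Other named genes, such as Slc40a1, Eln and Gm42418, were chosen after their values were seen. Alternatives were another pseudocount (5), no filter or a mean of at least 50, quantile and TMM scaling, a replicate block, array weights, fits of only the compared groups, DESeq2 (1.42.0), edgeR (4.0.16) and limma on 14 libraries, omission of Ttr-rich libraries and of each library in turn. DESeq2 and edgeR on all 16 libraries were added after the values were seen. Promoter sequences are from RefSeq.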

Additional observations from a re-analysis of the deposited data

Results flagged for a closer look

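In 3 of 40 groups of 4 libraries (10 genes in 4 groups), 1 library lay far from the other 3 by Dixon's criterion (the gap to the nearest library over the group's range, at its 95% limit), which chance gives in about 1 in 20 groups. Gfap was 5988.27 normalized counts in aged Acsl6-/- 3, above the 4788 to 4939.9 of the others, and without that library the genotype difference at 18 months was -0.011 on the log2 scale. Vim was 3053.2 in aged Acsl6-/- 1, below the 3223 to 3244 of the others. Ggta1 was 76.8935 in aged control 2, above the 42.1 to 44.6 of the others.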

How the results depend on the processing

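The number of members higher at 2 months (1, Gfap) was 0 with quantile scaling (adjusted p of Gfap 0.061), with only the groups compared (0.081), with edgeR (0.077) or limma (0.067) on 14 libraries, with edgeR on 16 (0.054) and without the Ttr-rich libraries (0.23), and 0 to 1 when each library was left out. The 8 members higher with age in controls became 4 with DESeq2, edgeR or limma on 14 libraries (without aged control 3 and 4). These fits called 1561, 1681 and 1547 genes higher, against 2610 in the main fit. The count was 4 without the Ttr-rich libraries (1350 genes called higher), and 5 to 8 when each library was left out (5 without aged control 3). The 7 higher with age in Acsl6-/- mice ranged from 5 to 7 over 30 alternatives, and the counts at 18 months and for the interaction were 0 in all 30 and 29. With libraries left out, the genotype difference at 18 months ranged from -0.011 to 0.096 for Gfap (-0.011 without aged Acsl6-/- 3) and from -0.074 to 0.058 for Vim (0.0084 without aged Acsl6-/- 1 and 0.058 without aged control 1). In all, 61 of 1469 alternative values changed sign, in 15 of 50 results, and 0 of them were called. Over all genes at 2 months, limma called 23 higher and 13 lower, against 131 and 96 by DESeq2 on 16 libraries, 125 and 87 by DESeq2 on 14, 45 and 24 with array weights, 39 and 18 at a mean of at least 50 and 9 and 4 without the Ttr-rich libraries. At 18 months it called 14 higher and 27 lower, against 71 and 93 by DESeq2 on 16 libraries, and for the interaction 1 and 2, against 30 and 57. The causes of these shifts were not tested. The fit with a replicate block kept the counts at 1, 0, 8, 7 and 0 (2 months, 18 months, age in controls, age in Acsl6-/- mice, interaction). Same-numbered libraries of different groups correlated at -0.20 to 0.21, so the numbers were not taken as pairs. Depth limits Cd109 most (17 reads at the lowest).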
